A study of Mus musculus with 17 samples.

Results

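Goblet cells make the mucus of the colon, and 10 genes of these cells are described here in the colon of wild-type and Pxr-/- mice given the PXR agonist PCN or its vehicle. The genes are Muc2, Fcgbp, Clca1, Zg16, Tff3, Agr2, Atoh1, Spdef, Spink4 and Klk1. They were chosen by name, as 10 of the 24996 genes or transcripts with a tested probe, and each is followed on its probe with the highest mean in the deposited table of log2 values. Every one of the 10 probes was well above the background on all 17 arrays.

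Goblet cells are the secretory cells of the intestinal epithelium that fill their apical side with mucin granules. The gel-forming mucin they release, together with the proteins that cross-link and trim it, makes the mucus layers that keep bacteria away from the colon's surface. The cells arise from progenitors that escape Notch signalling and switch on the transcription factor Atoh1, and Spdef acts later to complete their maturation. Goblet cells and the mucin sugars they make are known to change along the length of the colon. In whole tissue, fewer goblet cells and less RNA per goblet cell cannot be told apart.

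The arrays were 1-colour Agilent arrays of colon RNA from male mice, all on the C57Bl6/J background. WT mice were bought at 6 weeks of age and Pxr-/- mice, which lack the nuclear receptor PXR in all cells, had been bred in the study's own facility for 10 years, so that the origin of the animals and the genotype cannot be told apart; all were kept for 2 weeks before the experiment. PCN (pregnenolone carbonitrile, a ligand of rodent PXR) was injected intraperitoneally at 100 mg/kg in corn oil once a day for 4 days. Control mice (CONT) had corn oil only. Tissue was taken 6 h after the last injection from mice with free access to food. There were 5 arrays of Pxr-/- CONT and 4 of each of WT CONT, WT PCN and Pxr-/- PCN, and the series asks how PXR targets in the intestine compare with those in the liver.

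Some arrays stood apart from the rest. The arrays labelled WT PCN 4 and Pxr-/- PCN 2 were nearly identical (SD of the log2 differences over probes 0.172), as were those labelled WT PCN 3 and Pxr-/- CONT 2 (0.198), whereas the other 134 pairs had SDs of 0.297 to 0.616. The 10 goblet cell genes differed by a median of 0.02 log2 units within the first of these pairs and of 0.04 within the second. Nr1i2, the gene of PXR, read 11.10 and 11.15 in the arrays labelled WT PCN 3 and 4 against 11.85 to 12.44 in the other WT arrays and 10.39 to 11.93 in the Pxr-/- arrays; whether its probe lies in the deleted part of the gene was not given in the sources used here. Every comparison was therefore also fitted without these 4, and the values without them are given for the 10 genes where they bear on a result. Pancreatic acinar genes were high in 4 arrays (WT CONT 4, WT PCN 1 and 3, Pxr-/- CONT 2), where their mean was 11.30 to 17.63 against 6.72 to 7.16 elsewhere. In Pxr-/- PCN 4 the distal colon gene Hoxb13 read 7.53 against 12.88 to 16.09 in the other arrays. The mean of the absorptive ileum genes was the highest of all there, at 11.19. Colonocyte genes were mixed in this array. Car1 was the highest of all arrays, at 17.04, whereas Aqp8 (13.10) and the mean of the colonocyte genes (13.57) were the lowest. These genes alone do not settle its tissue label, and its position along the gut was not tested.

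Muc2 and Fcgbp were each measured by a second probe. That of Fcgbp lies at chr7:28873024-28873083 of mm9. That of Muc2 lies nearer the 5′ end of the gene, at chr7:148883009-148883068 of mm9, on the plus strand. The probe used for Muc2 lies at chr7:148940536-148940595. Values of the second probes are given where they differ in size from those of the probe used. The Spink4 probe (chr4:40876206-40878330) and the Klk1 probe (chr7:51484170-51484325) match their gene in pieces that an intron separates. The Fcgbp probe lies at chr7:28905517-28905576 and the Zg16 probe on the minus strand at chr7:134193837-134193896. They are shown because every value below for these genes is the brightness of labelled RNA bound to 1 of them.
Muc2, 5′ probe: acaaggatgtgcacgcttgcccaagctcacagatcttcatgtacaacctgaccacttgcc
Fcgbp: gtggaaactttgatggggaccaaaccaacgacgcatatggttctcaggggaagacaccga
Zg16: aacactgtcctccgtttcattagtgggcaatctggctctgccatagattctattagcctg
Spink4: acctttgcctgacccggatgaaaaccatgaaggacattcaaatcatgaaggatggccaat
Klk1: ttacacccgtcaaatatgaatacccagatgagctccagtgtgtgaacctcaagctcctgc

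Values below are log2 signals, that is, log2 of the median brightness of a spot after quantile normalization between arrays, so that a difference of 1 is a doubling of the signal. A difference passed the test where its FDR did not exceed 0.05 and its fold change exceeded 1.5, using limma with Benjamini-Hochberg adjustment over all 38703 tested probes.

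Between the genotypes given corn oil only, the Pxr-/- CONT mean lay above the WT CONT mean for 8 of the 10 genes and none passed the test. On the probes used, the shifts were widest for the transcription factor Spdef and for Spink4, a secreted protein of the Kazal inhibitor family. The 5′ probe of Muc2 had means of 13.17 in WT CONT and 14.29 in Pxr-/- CONT, beside 18.10 and 18.28 on the probe used. Its groups overlapped, at 12.25 to 14.37 and 13.59 to 14.96. Of all 24996 genes, 0% were called in this comparison and 52.5% were higher. The median difference over the 10 genes was 0.24 log2 units, beside 0.01 over all genes, and their adjusted p-values ran from 0.295 to 0.828.
Spink4 read 16.44, 16.08, 16.84 and 16.68 in WT CONT and 17.04, 17.46, 17.15, 17.09 and 17.37 in Pxr-/- CONT. The groups did not overlap. The difference was 0.73 ± 0.31 log2 units (SE), or 1.66-fold, with a limma adjusted p of 0.363, and it was 0.65 ± 0.22 without the 4 near-identical arrays (adjusted p = 0.353). Within the first wash bath the Pxr-/- CONT mean was 0.86 above that of WT CONT, and within the second it was 0.53 above.
Atoh1, which commits progenitors to the secretory lineage, read 12.31, 12.30, 12.20 and 12.35 in WT CONT. In Pxr-/- CONT it read 12.53, 12.62, 12.66, 12.54 and 12.59. These groups did not overlap either, although they lay closer together: the difference was 0.31 ± 0.11 (adjusted p = 0.295, limma), and 0.29 and 0.31 within the wash baths. Groups that did not overlap, with Pxr-/- CONT higher, were found for 2 of the 10 genes and for 2.36% of all genes, and without the 4 near-identical arrays for the same 2 genes and for 2.94% of all genes.
Agr2, a protein disulfide isomerase that folds the mucin in the endoplasmic reticulum, read 16.99, 16.53, 17.33 and 16.91 in WT CONT and 17.09, 17.65, 17.56, 17.58 and 17.36 in Pxr-/- CONT. The groups overlapped at WT CONT 4 and Pxr-/- CONT 1. Its difference was 0.53 ± 0.22 (adjusted p = 0.359, limma), and 0.46 ± 0.22 without the 4 near-identical arrays (adjusted p = 0.528).
Spdef read 13.86, 13.15, 14.74 and 14.17 in WT CONT and 14.34, 15.26, 15.23, 15.17 and 14.38 in Pxr-/- CONT. WT CONT 4 lay within the Pxr-/- CONT range and WT CONT 3 was the lowest of the 9 control arrays. Its difference, 0.92 ± 0.45, had the widest interval of the 10 genes, from -0.03 to 1.88. Without the 4 near-identical arrays it was 0.80 ± 0.47 (adjusted p = 0.608, limma). Within the wash baths it was 1.69 and 0.21. At an unadjusted p under 0.05 stood 3 of the 10 genes (Agr2, Atoh1 and Spink4), beside 11.4% of all genes, and 2 of the 10 (Atoh1 and Spink4) without the 4 near-identical arrays, beside 8.58%. In that fit too 0% of all genes were called.
Tff3, the trefoil peptide of goblet cells, and Zg16, a lectin that binds Gram-positive bacteria, had differences of -0.17 ± 0.13 and -0.18 ± 0.13 (-0.12 ± 0.13 and -0.14 ± 0.14 without the 4 arrays), and neither passed the test.

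Itln1, an intestinal lectin made by Paneth and goblet cells, differed alongside Spink4. It read 9.24 to 12.29 in WT CONT and 13.43 to 14.92 in Pxr-/- CONT, without overlap, a difference of 3.51 ± 1.07 (adjusted p = 0.253, limma). The mean of the 6 measured Paneth cell genes of a list of 8 was 9.86 to 10.46 in WT CONT and 10.72 to 11.04 in Pxr-/- CONT, and 4 of the 6 were higher, beside 52.5% of all genes. Itln1 is 1 of these 6 and had the widest difference of them, so that it weighs on their mean. The median difference over the 6 was 0.43. Lyz1, the lysozyme of Paneth cells, had a difference of -0.42 ± 0.26 (adjusted p = 0.520, limma). The Paneth defensin Defa24 read 5.09 to 5.38 and 5.11 to 5.54 in the same groups, and reached 11.89 only in the near-identical pair WT PCN 4 and Pxr-/- PCN 2. The part of Paneth cells in the Spink4 values was not tested.

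**Figure D1:**
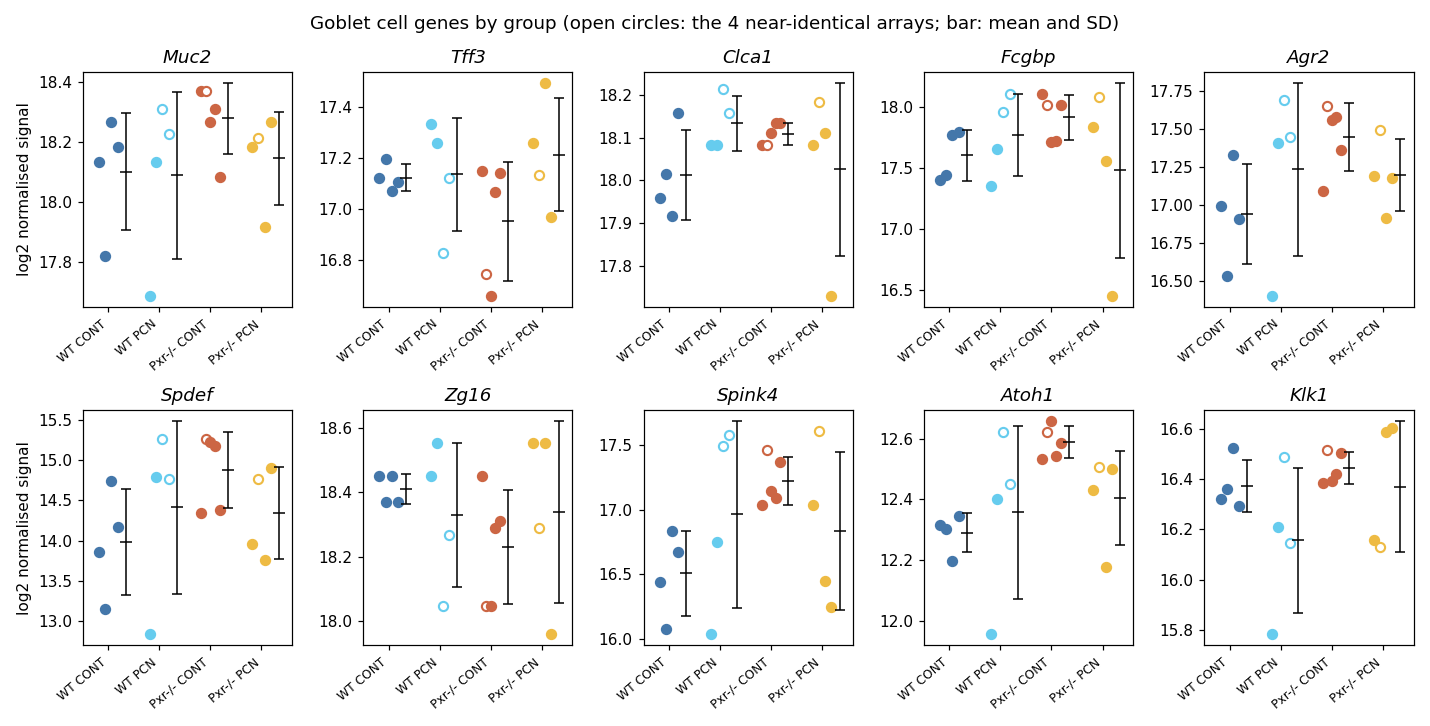
Log2 normalised signal (y axis) of each goblet cell gene in the 4 groups (x axis), 1 circle per array, with the mean and SD of each group as a bar. Open circles are the 4 near-identical arrays; Atoh1 and Spink4 show no overlap between WT CONT and Pxr-/- CONT, and WT PCN 1 and Pxr-/- PCN 4 give the lowest values of several genes.

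PCN did not move any of the 10 genes past the test in WT mice. The mucin gene Muc2 read 18.13, 17.82, 18.27 and 18.18 in WT CONT and 17.68, 18.13, 18.31 and 18.23 in WT PCN. The groups overlapped throughout. Its difference was -0.01 ± 0.14, with a 95% interval from -0.31 to 0.28 (limma). On the 5′ probe Muc2 read 12.25 to 14.37 in WT CONT and 12.01 to 14.70 in WT PCN. The means on that probe were 13.17 and 13.73, with SDs of 0.88 and 1.19. Of all genes 0% were called, and 7 of the 10 genes were higher under PCN, beside 51.4% of all genes. No gene of the 10 had groups that did not overlap, beside 2.84% of all genes.
The array WT PCN 1 was the lowest of the WT PCN arrays in 7 of the 10 genes, with Spdef at 12.83, Agr2 at 16.40 and Klk1 at 15.78. The other WT PCN arrays read 14.79, 15.27 and 14.76 for Spdef. The spread was thus wider within WT PCN (SD 1.08 for Spdef) than the difference from WT CONT (0.36 ± 0.48). WT PCN 1 was the only WT PCN array in the second wash bath, so that array and bath cannot be told apart here. Within the first bath the difference was 1.43 for Spdef, 1.02 for Spink4 and 0.75 for Agr2. Within the second it was -1.63, -0.72 and -0.72. Klk1 was lower in both baths (-0.06 and -0.63) and Clca1 higher in both (0.16 and 0.05).
Klk1, a kallikrein protease also made by the pancreas and the salivary glands, read 16.32, 16.36, 16.52 and 16.29 in WT CONT and 15.78, 16.21, 16.49 and 16.15 in WT PCN. Without the arrays labelled WT PCN 3 and 4, the remaining pair lay below every control array. Tff3 lay above every control array in the same pair. Zg16 also counted as above the controls, but only by less than the digits shown, since WT PCN 1 read 18.45, as did WT CONT 2 and 4. Groups that did not overlap, in either direction, were thus found for 3 of the 10 genes (Klk1, Tff3 and Zg16). The share was 11.4% of all genes with these few arrays. In the fit without the 4 near-identical arrays, the Klk1 difference was -0.38 ± 0.15 (unadjusted p = 0.0268, adjusted p = 0.972, limma). In that fit 16 genes were called of the 24996, which is 0.064%, and none of the 10 goblet cell genes was among them. At an unadjusted p under 0.05 stood 0 of the 10 with all arrays (4.88% of all genes) and 1 of the 10 without the 4 (4.94%). The median difference over the 10 genes was 0.07 with all arrays and -0.11 without the 4, so that its sign rested on which of these arrays were counted.

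In Pxr-/- mice, 8 of the 10 genes were lower under PCN, by small amounts, and again none passed the test, beside 0.008% of all genes called and 51.2% higher. The median difference over the 10 genes was -0.16, beside 0.00 over all genes, and 0 of the 10 stood at an unadjusted p under 0.05, beside 7.6% of all genes. Fcgbp, a large protein bound covalently to the Muc2 gel, read 18.11, 18.02, 17.72, 17.72 and 18.02 in Pxr-/- CONT and 17.84, 18.08, 17.56 and 16.45 in Pxr-/- PCN. The lowest of these values belonged to Pxr-/- PCN 4, the array low in Hoxb13. The Fcgbp difference was -0.44 ± 0.26 (adjusted p = 0.771, limma), and -0.62 ± 0.28 without the 4 near-identical arrays (adjusted p = 0.695).
The second probe of Fcgbp read 14.77, 14.89, 14.73, 14.23 and 15.06 in Pxr-/- CONT and 14.09, 14.58, 13.98 and 13.10 in Pxr-/- PCN. The groups overlapped, and Pxr-/- PCN 4 was again the lowest. On this probe the difference was wider, at -0.81 ± 0.32 with all arrays (adjusted p = 0.606, limma) and -0.99 ± 0.30 without the 4 (adjusted p = 0.503). Between the control groups of the 2 genotypes it was 0.59 ± 0.32 (adjusted p = 0.452, limma), where the Fcgbp probe used above gave 0.32 ± 0.26.
Clca1, a secreted metalloprotease that processes the Muc2 network, also had its lowest value of all 17 arrays in Pxr-/- PCN 4, at 17.73 against 18.08, 18.18 and 18.11 in the rest of that group. The 5 Pxr-/- CONT arrays lay between 18.08 and 18.13. The difference was -0.09 ± 0.08, and -0.14 ± 0.10 without the 4 near-identical arrays. On its 5′ probe Muc2 read 13.59 to 14.96 in Pxr-/- CONT and 12.19 to 14.50 in Pxr-/- PCN, with means of 14.29 and 13.57.
Atoh1 read 12.43, 12.51, 12.18 and 12.50 in Pxr-/- PCN, below all 5 Pxr-/- CONT arrays. This was the only one of the 10 genes whose groups did not overlap, beside 1.58% of all genes that did so with Pxr-/- PCN lower, and its difference of -0.19 ± 0.11 had an adjusted p of 0.749. Without the 4 near-identical arrays Spink4 did not overlap either, with 17.04, 16.45 and 16.25 under PCN against 17.04 to 17.37, so that the groups touched to within the second decimal, a difference of -0.60 ± 0.24 (adjusted p = 0.631, limma), beside 3.69% of all genes lower in this way. In that fit 0.064% of all genes were called and 2 of the 10 genes, Fcgbp and Spink4, stood at an unadjusted p under 0.05, beside 7.48% of all genes. Itln1 differed by -3.16 ± 0.62 in the same fit (adjusted p = 0.228).
Tff3 went the other way, with 17.15, 16.74, 16.66, 17.07 and 17.14 in Pxr-/- CONT and 17.26, 17.13, 17.50 and 16.97 in Pxr-/- PCN. The difference was 0.26 ± 0.13 (adjusted p = 0.717, limma), and 0.24 ± 0.15 without the 4 arrays (adjusted p = 0.807).

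Under PCN no gene passed the test between the genotypes. With all arrays 7 of the 10 genes were higher in Pxr-/- PCN, with a median difference of 0.01 and adjusted p-values of 1.00, beside 0% of all genes called and 51.4% higher. At an unadjusted p under 0.05 stood 0 of the 10, beside 3.06% of all genes, and no gene of the 10 had groups that did not overlap, beside 1.4%. The Spdef difference of 0.00 ± 0.48 had a 95% interval from -1.02 to 1.02 (limma), which includes a doubling in either direction. The near-identical arrays WT PCN 4 and Pxr-/- PCN 2 stand on opposite sides of this comparison. Without the 4 near-identical arrays the median difference over the 10 genes was 0.18, with 6 of the 10 higher, and Klk1 was the widest, with 16.16, 16.59 and 16.60 in Pxr-/- PCN and 15.78 and 16.21 in WT PCN, a difference of 0.47 ± 0.16 (unadjusted p = 0.0128, adjusted p = 0.540, limma). In that fit 0.032% of all genes were called, and Klk1 was the 1 gene of the 10 at an unadjusted p under 0.05, beside 6.87% of all genes.
No gene of the 10 passed the test of a PCN effect that differed between genotypes, nor that of the PCN effect averaged over both genotypes, beside 0% and 0.008% of all genes (0.004% and 0.264% without the 4 near-identical arrays). With all arrays the interaction was above 0 for 3 of the 10 genes, beside 49.8% of all genes, and the averaged effect for 4, beside 50.3%. The largest interaction terms were those of Spdef (-0.92 ± 0.65) and Spink4 (-0.82 ± 0.45), both with an adjusted p of 0.848. These terms were -0.38 ± 0.77 and -0.49 ± 0.36 without the 4 near-identical arrays. At an unadjusted p under 0.05 stood 0 of the 10 genes in either test, beside 5.39% and 6.41% of all genes. Without the 4 near-identical arrays the interaction was above 0 for 3 of the 10 genes, beside 50.4% of all genes. The averaged effect was then above 0 for 2 of the 10, beside 47.9%. Its median over the 10 genes was -0.17 in that fit and -0.04 with all arrays.

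**Figure D2:**
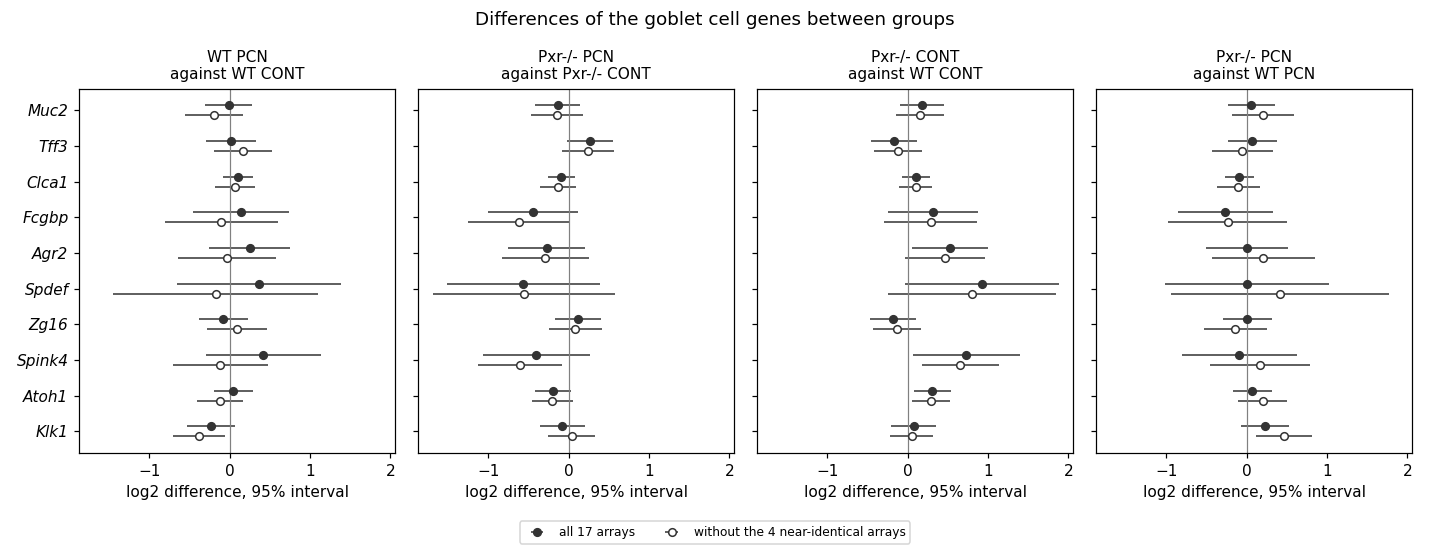
Log2 difference (x axis) with its 95% interval for each goblet cell gene (rows) in the 4 comparisons, with all 17 arrays (filled) and without the 4 near-identical arrays (open). For WT PCN against WT CONT the medians of the filled and open points lie on opposite sides of 0, at 0.07 and -0.11.

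Some of the 10 genes also varied with genes that mark the position along the gut. Hox genes of the posterior group mark the distal end of the gut, and the mean of Hoxa13, Hoxb13, Hoxd11, Hoxd12 and Hoxd13 ranged over the arrays from 6.35 to 10.44 in log2 signal. The range was 8.03 to 9.88 in WT CONT, 8.05 to 10.31 in WT PCN, 7.70 to 9.47 in Pxr-/- CONT and 6.35 to 10.44 in Pxr-/- PCN, so that the groups overlapped. Arrays high and low in these genes thus occurred in every group. The group means were 9.13, 8.75, 8.57 and 8.63 in the same order. In Pxr-/- CONT 4 of the 5 Hox genes were lower than in WT CONT, with a median difference of -0.73. Of these 5 genes 0 had an unadjusted p under 0.05 in limma. Differences with the Hox mean as a covariate are given below. The slope of each gene on the Hox mean was fitted beside group and wash bath. The slope was looked for after the values had been seen. A slope passed the test where its FDR did not exceed 0.05, with no limit on its size.
With all arrays 4 of the 10 genes had a slope past the test, 3 of them downward (Spdef, Muc2 and Agr2) and 1 upward (Tff3), beside 16.3% of all genes, 8.76% downward and 7.49% upward. Without the 4 near-identical arrays only Spdef remained among the 10, beside 13.9% of all genes.
With the replicate number as a block, which the labels do not tie to a shared animal or day, 0 of the 10 slopes passed.
Spdef fell by 0.53 ± 0.09 log2 units for each log2 unit of the Hox mean (adjusted p = 0.000907, limma). With the replicate block the slope was -0.55 ± 0.16 and did not pass (adjusted p = 0.138). Its 3 lowest values, 13.75, 12.83 and 13.15, belonged to the 3 arrays with the highest Hox means, Pxr-/- PCN 3, WT PCN 1 and WT CONT 3. The other 14 arrays read 13.86 to 15.27. Without the 4 near-identical arrays the slope was -0.48 ± 0.09 (adjusted p = 0.00741), and within the wash baths, after removing group means, it was -0.49 and -0.40.
Muc2 was lowest in the same 3 arrays, at 17.92, 17.68 and 17.82 against 18.08 to 18.37 in the other 14. Its slope was -0.13 ± 0.03 (adjusted p = 0.0196, limma). The 5′ probe of Muc2 had a wider range, from 12.01 to 14.96, a slope of -0.72 ± 0.10 (adjusted p = 0.000194), and its call was kept without the 4 near-identical arrays, at -0.65 ± 0.09 (adjusted p = 0.000989). Its values in the 3 arrays with the highest Hox means were 12.19, 12.01 and 12.25, and none of the others was below 13.03. The probes of Muc2 thus ran in the same direction and differed in size, and why was not tested. The main probe of Muc2, like those of Zg16 and Clca1, lies near the top of the signal range, where quantile normalization gives a few fixed values and several arrays read the same (18.45 for Zg16 in 4 arrays). No spot was saturated.
Agr2 fell by 0.22 ± 0.06 for each unit (adjusted p = 0.0249, limma), and by 0.18 ± 0.06 without the 4 near-identical arrays, where it did not pass the test (adjusted p = 0.0937). Tff3 had a slope of 0.12 ± 0.04 (adjusted p = 0.0488), close to the threshold, and of 0.10 ± 0.04 without the 4 (adjusted p = 0.152). Its highest value, 17.50, was in Pxr-/- PCN 3, the array highest in Hox.
WT PCN 1 carried part of these slopes: without it Spdef alone kept its call, at -0.42 ± 0.09 (adjusted p = 0.00595, limma), with Muc2 at -0.09 ± 0.03 (adjusted p = 0.126) and Agr2 at -0.14 ± 0.06 (adjusted p = 0.154). Without the arrays at both ends of the Hox range, Pxr-/- PCN 4 and 3, the slopes of Spdef (-0.82 ± 0.11), Agr2 (-0.41 ± 0.07) and Muc2 (-0.20 ± 0.05) were steeper and all passed the test, whereas Tff3 (0.11 ± 0.06) did not.
The other 6 genes did not pass. The slopes were 0.11 ± 0.04 for Zg16, -0.08 ± 0.03 for Atoh1, 0.05 ± 0.03 for Clca1, -0.08 ± 0.04 for Klk1, -0.11 ± 0.11 for Spink4 and 0.11 ± 0.09 for Fcgbp. The slopes of Fcgbp and Clca1 were upward with Pxr-/- PCN 4 included, and Fcgbp had a slope of -0.15 ± 0.08 and Clca1 of 0.01 ± 0.04 without it and Pxr-/- PCN 3.
With the Hox mean as a covariate, Pxr-/- CONT differed from WT CONT by 0.62 ± 0.25 for Spdef and 0.67 ± 0.31 for Spink4. For Agr2 and Atoh1 the differences were 0.41 ± 0.17 and 0.26 ± 0.09. None of the 10 genes was called in any comparison in that fit (lowest adjusted p = 0.285, limma).

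**Figure D3:**
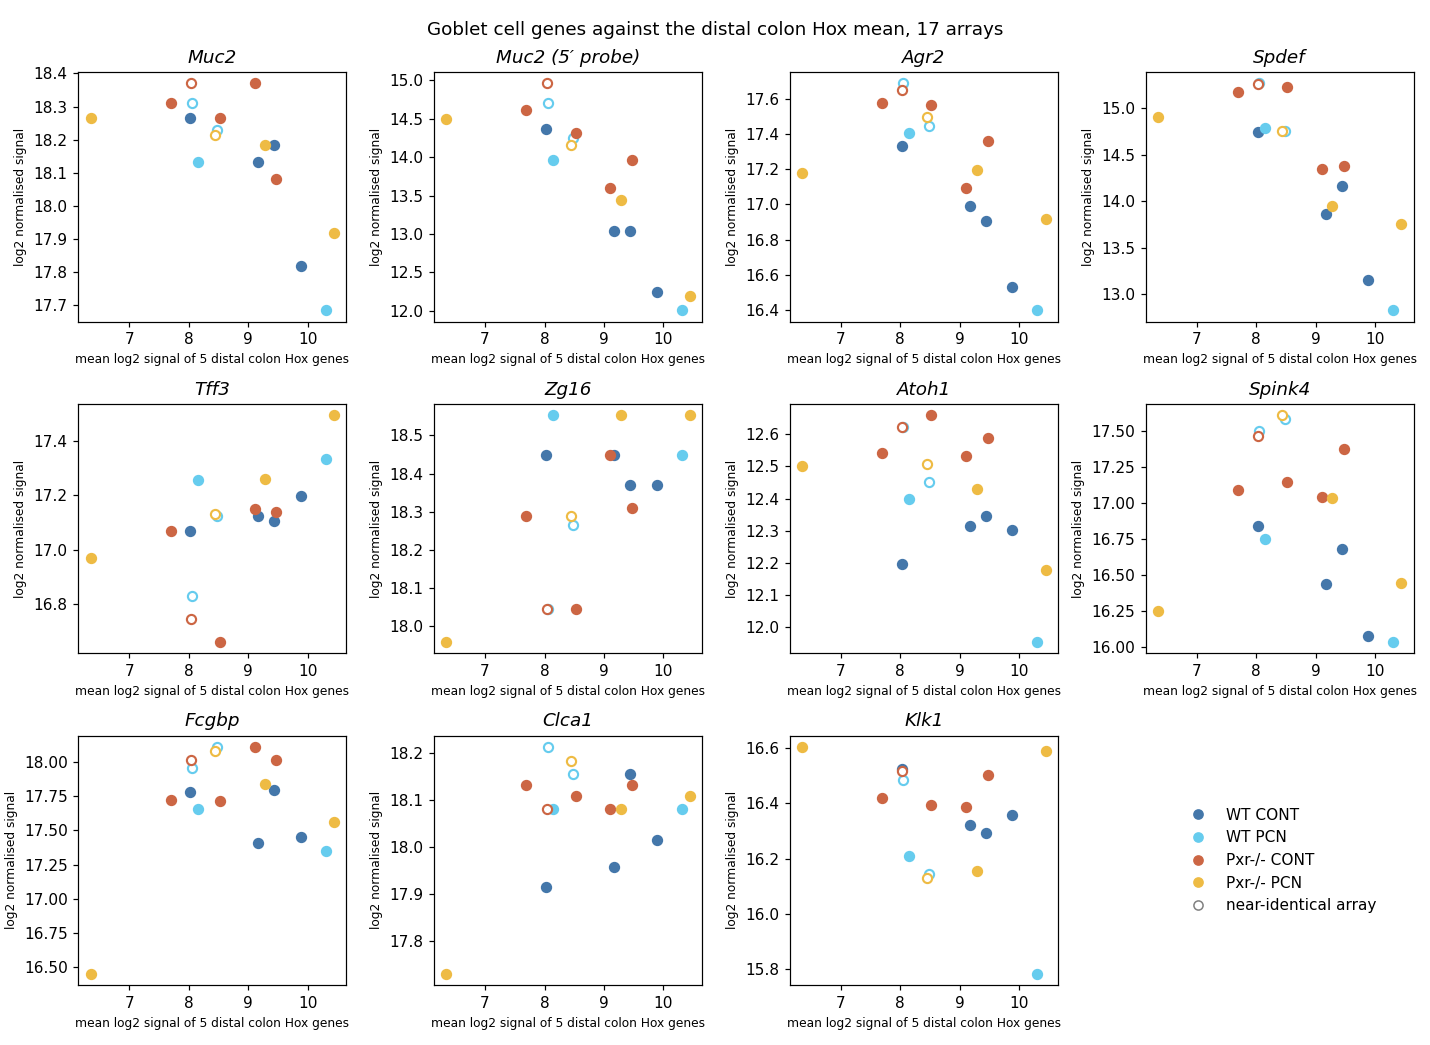
Log2 normalised signal of each goblet cell gene, and of the 5′ probe of Muc2 (y axes), against the mean log2 signal of 5 distal colon Hox genes (x axes), 1 circle per array, coloured by group, with open circles for the 4 near-identical arrays. Spdef and Muc2 are lowest in the 3 arrays with the highest Hox means.

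**Figure D4:**
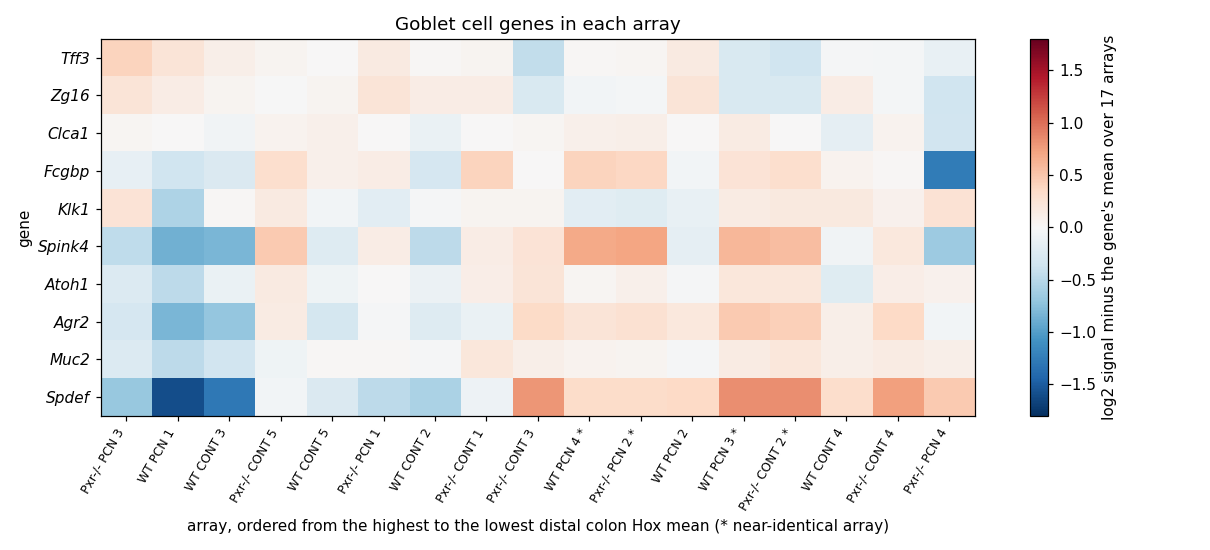
Log2 signal of each goblet cell gene (rows) minus its mean over the 17 arrays, by colour, in each array (columns, from the highest Hox mean at the left to the lowest at the right; asterisks mark near-identical arrays). Spdef, Muc2 and Agr2 are below their means in the 3 arrays at the left, and Fcgbp is far below its mean in Pxr-/- PCN 4 at the right, where it read 16.45.

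The promoters of the genes with downward slopes are shown because they moved together, as the 250 bases before the start of the gene in RefSeq (GRCm38.p6). Capitals mark TTTAT or its reverse complement ATAAA, letters found in the sites of posterior HOX proteins and of the intestinal factor CDX2.
Muc2, chr7:141690090-141690339, plus strand: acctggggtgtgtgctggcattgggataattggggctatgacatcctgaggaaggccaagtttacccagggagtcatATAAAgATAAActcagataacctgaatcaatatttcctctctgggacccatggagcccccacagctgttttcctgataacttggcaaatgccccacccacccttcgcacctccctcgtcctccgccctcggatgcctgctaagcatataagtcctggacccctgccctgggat
Agr2, chr12:35992675-35992924, plus strand: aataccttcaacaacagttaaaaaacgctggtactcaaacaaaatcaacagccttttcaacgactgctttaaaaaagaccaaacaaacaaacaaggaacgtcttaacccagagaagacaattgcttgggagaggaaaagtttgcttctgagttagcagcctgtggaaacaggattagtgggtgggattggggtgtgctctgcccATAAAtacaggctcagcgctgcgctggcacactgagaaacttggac
Spdef, chr17:27728952-27729201, minus strand: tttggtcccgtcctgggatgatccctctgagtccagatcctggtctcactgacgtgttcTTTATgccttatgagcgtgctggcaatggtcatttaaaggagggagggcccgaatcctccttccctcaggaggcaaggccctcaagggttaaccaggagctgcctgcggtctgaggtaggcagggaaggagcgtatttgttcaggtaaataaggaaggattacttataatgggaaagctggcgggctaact
The table of promoters held 6 of the 10 genes, and 3 of the 6 had these letters on either strand, all shown above, beside 37.3% of 32851 promoters. Fcgbp, Klk1 and Atoh1 had none in this window. CAGCTG, an E-box that reads the same on both strands and is of the kind bound by Atoh1 and related factors, was found in Muc2 and Fcgbp, and in 13% of all promoters. A TATA sequence (TATAAA, which contains ATAAA) was found in Muc2 and in 7.59% of all promoters. A match describes these letters and not binding.

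Other genes of goblet cells and mucus, in lists by role, were read in the same way, and none was called in any comparison between the groups. Between the control groups, 17 of 23 other goblet cell genes were higher in Pxr-/- CONT (median 0.27), beside 52.5% of all genes. So were 21 of 27 measured genes of 28 listed of mucin glycosylation and sulfation (median 0.20). Of the mucus secretory pathway 19 of 22 genes were higher (median 0.11). Retnlb, an antibacterial peptide of goblet cells, differed by 3.62 ± 1.02 (adjusted p = 0.240, limma), and the peptidyl-GalNAc transferase gene Galnt5 by 0.70 ± 0.25 (adjusted p = 0.299). Genes of other cell types differed between these groups as well. Adipocyte genes were higher for 1 of 8 (median -1.02), and their mean was 9.56 to 11.14 in WT CONT and 8.96 to 10.41 in Pxr-/- CONT. Of these 8 genes 5 had an unadjusted p under 0.05, beside 11.4% of all genes. Liver genes were higher for 0 of 8 (median -1.55), with a mean of 6.95 to 11.57 in WT CONT and 6.65 to 7.29 in Pxr-/- CONT. Their part in the goblet cell values was not tested. Of 16 transcription factors and Notch genes 10 were higher, and of 6 measured transmembrane mucins of 9 listed 4 were higher. Muc13, a transmembrane mucin, differed by -0.49 ± 0.14 (adjusted p = 0.239).
Under PCN in Pxr-/- mice the same lists leaned the other way: 7 of 23 other goblet cell genes, 5 of 27 glycosylation genes and 2 of 22 secretory pathway genes were higher, beside 51.2% of all genes. These counts were 6, 6 and 2 without the 4 near-identical arrays, beside 50.3% of all genes. Smooth muscle genes were higher for 0 of 8 (median -0.42), with a mean of 13.87 to 14.45 in Pxr-/- CONT and 13.51 to 14.04 in Pxr-/- PCN. Of these 8 genes 5 had an unadjusted p under 0.05, beside 7.6% of all genes. Without the 4 near-identical arrays 3 of the 8 did, beside 7.48%. Their part in the goblet cell values was not tested. Hspa5, the main chaperone of the endoplasmic reticulum, differed by -0.49 ± 0.18 (adjusted p = 0.593, limma). Pxr-/- CONT serves in both comparisons, so that they are not independent of each other. The goblet, glycosylation and secretory pathway lists had 15 of 23, 16 of 27 and 12 of 22 genes higher under PCN in WT mice. The share of all genes was 51.4%. Without the 4 near-identical arrays these WT counts were 5, 6 and 5, beside 48.7% of all genes.
Along the Hox mean, 12 of 23 other goblet cell genes had a slope past the test, 3 upward and 9 downward, beside 16.3% of all genes, and all 12 were called again without the 4 near-identical arrays. Tgm3, a transglutaminase that cross-links mucus proteins, rose by 1.91 ± 0.12 log2 units for each unit of the Hox mean, and Reg4 and Best2 rose by 1.45 ± 0.32 and 0.99 ± 0.10. Without the 4 arrays these slopes were 1.93 ± 0.14, 1.74 ± 0.17 and 0.93 ± 0.11. Agr3, a relative of Agr2, fell by 0.59 ± 0.06. Of the 27 glycosylation genes 15 passed, 3 upward and 12 downward, and 13 of them also without the 4 arrays. B3gnt6, the core 3 synthase of the colon's O-glycans, fell by 1.75 ± 0.21 (-1.68 ± 0.24 without the 4 arrays), and B3gnt7, which extends sulfated chains, rose by 1.26 ± 0.11. Of the 22 secretory pathway genes 7 passed, and 5 without the 4 arrays, among them Ern2, the stress sensor IRE1β of goblet cells, which fell by 0.19 ± 0.03. Of 16 transcription factors and Notch genes 7 passed, and 5 without the 4 arrays, with Foxa2 rising by 0.43 ± 0.03 and Creb3l4 falling by 0.36 ± 0.05. Muc3, Muc3a and Muc4 passed among the transmembrane mucins, and the slope of Muc4 (-0.41 ± 0.10) was not called without the 4 arrays. Of the genes of other cell types, 6 of 10 colonocyte genes and 4 of 6 absorptive ileum genes passed as well.

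Patterns were compared with the mean of the 10 after centring each gene and averaging each near-identical pair to 1 unit (15 units). The closest genes were Tmed2 (Pearson r = 0.944), Ranbp17 (0.933), Nr4a2 (0.931), Sem1 (0.927) and Tmem181a (0.926). Ranbp17 was dim, at 5.72 to 6.78, beside 14.12 to 14.64 for Tmed2. Within the 10, r with the mean of the 10, which includes the gene itself, ran from 0.932 for Spink4 and 0.929 for Agr2 down to -0.24 for Zg16 and -0.46 for Tff3. The units share normalization and the 4 group labels, and these values are descriptions.

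Klk1 and Zg16 are also genes of the exocrine pancreas. In the 4 arrays high in pancreatic acinar genes Klk1 read 15.78 to 16.52, beside 16.13 to 16.60 in the others, and Zg16 read 18.05 to 18.45, beside 17.96 to 18.55. Within its own group Klk1 was highest in 3 of these 4 arrays. It read 16.52 in WT CONT 4 against 16.29 to 16.36 in the others. In WT PCN 3 it read 16.49 against 15.78 to 16.21, and in Pxr-/- CONT 2 it read 16.52 against 16.39 to 16.50. WT PCN 3 and Pxr-/- CONT 2 are 1 of the near-identical pairs and may not count separately. WT PCN 1 was the lowest of its group. The part of pancreatic RNA in the Klk1 values was not tested. Without these 4 arrays none of the 10 goblet cell genes was called in any comparison between the groups, and Spdef alone had a slope past the test.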

How the data were processed

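Colon RNA was measured on 17 1-colour Agilent arrays, 1 per sample, with groups and replicate numbers taken from the labels. Whether arrays of 1 group came from separate mice is not stated for each array, so that p-values measure the spread between these samples. The authors deposited scanner files from Feature Extraction (version 10.10.1.1, per the submitters' notes) that give the intensity of each spot, without normalization between arrays. They also deposited a table of normalized log2 values for 36695 probes, which chose the probe of each gene and served as an alternative. From the 59305 spots that were not controls, outlier spots were dropped, log2 of the median intensity was quantile-normalized in place of the study's CrossNorm, and spots were averaged over 56605 probes. The 38703 probes well above background on at least 4 arrays were fitted in limma 3.58.1 (R 4.3.3) with group and wash bath (2 baths, named in the labels), and checked on simulated data. Probes were named through RefSeq accessions where found (32994 probes). The 10 genes, the lists and the tests were chosen with earlier results of these data known. For lists and counts over all genes, the probe with the highest mean stood for a gene. Named genes are the 10, the called genes of the lists, the genes with the smallest p per list, defining genes of other cell types, and the 5 genes most like the mean of the 10; Tgm3 and the other slopes on the Hox mean were named after their values were seen. 62.7% to 71.0% of spots were well above background, and the number of arrays limits the precision.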

Additional observations from a re-analysis of the deposited data

How the results depend on the processing

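None of the 10 goblet cell genes was called in any of the 6 comparisons between groups with the settings tried, 214 counts in all, including the authors' log2 values, other background corrections and filters, an FDR of at most 0.05 with no fold limit or of at most 0.10, and each array left out in turn. The median over the 10 genes moved by more than the spread between arrays once, for Pxr-/- PCN against WT PCN without the arrays labelled WT PCN 3 and 4, where it was 0.23. The slope on the Hox mean, added after seeing the data, depended more on the setting. The count of 4 genes with a slope was 2 with the processed signal minus the 75th percentile (Tff3 and Spdef), 1 without the 4 near-identical arrays, 2 without the arrays labelled WT PCN 3 and 4, and 1 without the 4 arrays highest in pancreatic acinar genes. Leaving out 1 array at a time gave 1 to 5 genes: 1 without WT PCN 1, 2 without WT CONT 4 (Muc2 and Spdef) and 2 without Pxr-/- PCN 3 (Spdef and Klk1). Spdef was called in 32 of 33 alternatives, Muc2 in 27, Agr2 in 25 and Tff3 in 11. Of 22 same-numbered pairs of arrays, 11 had a correlation of deviations over 0.1 (median 0.10, beside -0.048 for other pairs). These values do not settle whether the replicate numbers pair the arrays. With the replicate block the count was 0 and Spdef had a slope of -0.55 ± 0.16 (limma, adjusted p = 0.138); the block changed no call between groups. The causes were not tested.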
